A study of Homo sapiens with 30 samples.

Results

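A673 cells grown without drug were compared at 20 days and at 3 days: 6 vehicle libraries, 3 per time, of the 30 libraries in the series. The members were taken by cell line, treatment and time in the sample titles. A673 is an established Ewing sarcoma cell line, a tumour of bone and soft tissue, with the genotype label EWS::FLI1, a fusion transcription factor that joins EWSR1 to FLI1. It was cultured in RPMI1640 with 10% serum and 2 mM L-glutamine, and both groups carried the fusion and were given the solvent DMSO. For the 3-day group, RNA was taken 72 hours after plating into DMSO. The time that 20-day vehicle cells had spent in DMSO is not given in the labels, nor how often they were split. Nothing says that the replicates came from separate cultures; p-values therefore cover only the variation among these libraries, which could be technical. Vehicle libraries of CHLA10, a second EWS::FLI1 line grown in IMDM with 20% serum and the ITS-X supplement, were used to compare the same 20-day against 3-day interval. Line and medium cannot be told apart there. The series as a whole tested BMS-986158, which blocks bromodomains of the BET family, at 5 nM in A673, CHLA10 and TC32; the question here was what changed in A673 between the times when no drug was given.

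Genes of the ATF4 response were among those that differed between these libraries. When amino acids run short, haem is lacking, or the endoplasmic reticulum or mitochondria are disturbed, kinases phosphorylate the translation factor eIF2, general protein synthesis slows, and the ATF4 messenger RNA is translated more. ATF4 is a transcription factor that then raises genes for amino acid synthesis and import, tRNA charging, and feedback and death signals. In tumour cell cultures the programme is known to follow the nutrient state of the medium as well as drugs.

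The 6 libraries held 16479670 to 28265527 counts, and 16713 of the 33538 genes listed had enough counts to be tested. All 10 Ewing sarcoma markers (CD99, NKX2-2, NR0B1 and others) were present, at a summed 3630 to 3660 CPM (counts scaled to the library total) at 3 days and 3580 to 3790 at 20 days. CCND1, at 1930 to 2260 CPM, was the largest part of that sum. NR0B1 was not flat, at 321, 307 and 125 CPM in 3-day replicates 1, 2 and 3 and 155, 149 and 145 CPM at 20 days. Haematopoietic markers summed to at most 0.55 CPM, with CD3E at 0 in all 6, and skeletal muscle markers to at most 0.294 CPM. Endothelial markers summed to at most 8.60 CPM and melanocyte markers to at most 3.33 CPM. The 5 epithelial markers summed to 115 to 168 CPM at 3 days and 124 to 152 at 20 days, nearly all from the keratins KRT18 and KRT8; CDH1 was at most 0.194 CPM and KRT5 at most 0.0589. KRT8 was at 23.1, 25.5 and 10.0 CPM in 3-day replicates 1, 2 and 3 and 8.31, 12.3 and 12.4 CPM at 20 days, thus high in 3-day replicates 1 and 2. Of the 3 epithelial markers tested 0 were called by edgeR, and their part in the results was not tested. Fibroblast markers, several of which mesenchymal tumour cells also express, summed to 677 to 886 CPM at 3 days and 909 to 979 at 20 days. In such bulk RNA, fewer cells of a kind and less RNA per cell cannot be told apart.

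The 3-day group was not uniform. Replicates 1 and 2 correlated with each other at r = 0.988 over the log2 CPM of 16713 genes, a description across genes, and with replicate 3 at 0.973 and 0.976. Replicate 3 correlated with the 20-day libraries at 0.984, 0.991 and 0.989, higher than with its own group. Against the mean of the 20-day libraries, 3-day replicate 1 had 235 genes at least 2-fold higher and 81 at least 2-fold lower among 9971 well-expressed genes. Replicate 2 had 225 and 57, and replicate 3 had 10 and 15. Among the 20-day libraries, replicate 1 stood farthest out, with 12 genes 2-fold higher and 66 lower than the mean of the other 2. Mitochondrially encoded genes took 5.31%, 5.53% and 2.0% of counts in 3-day replicates 1, 2 and 3, and 1.68%, 2.96% and 2.32% at 20 days. No label tells replicate 3 from replicates 1 and 2, and each 3-day library is therefore also shown alone.

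Between the groups, 1019 of 16713 genes (6.1%) passed edgeR's quasi-likelihood test at a Benjamini-Hochberg adjusted p under 0.05. Of these, 505 rose and 514 fell from 3 to 20 days; 14 of those that rose and 232 of those that fell changed at least 2-fold. The calls depended on single libraries. Without 3-day replicate 1, 12 genes were called, without 3-day replicate 2, 16, and without 20-day replicate 1, 14. Without 3-day replicate 3, 3759 were called, among them 1012 of the 1019. Set alone against the 20-day group, with the spread taken from the other groups, 3-day replicate 1 gave 1862 calls, replicate 2 gave 1749 and replicate 3 gave 2. The fits for replicates 1 and 2 shared 1251 calls in the same direction, 67.2% and 71.5% of their lists. Fits restricted to the A673 libraries, or to the 6 vehicle libraries, called 0 genes by edgeR, with 3110 and 2661 genes at an unadjusted p under 0.05; DESeq2 and limma-voom on all 30 libraries called 1680 and 1187.

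**Figure D1:**
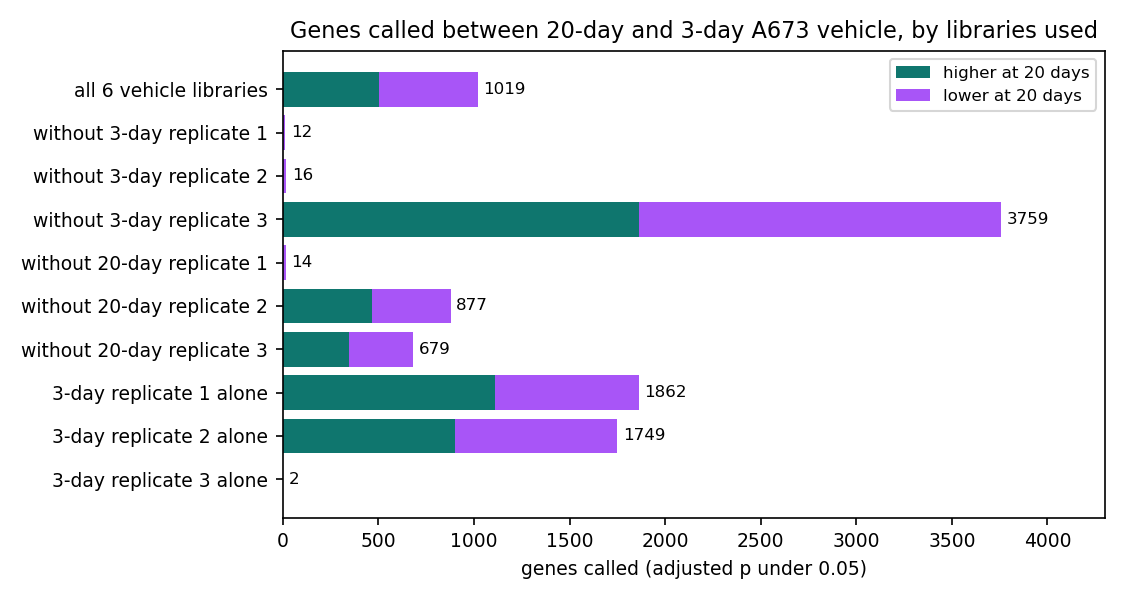
Number of genes called between 20-day and 3-day A673 vehicle cells (adjusted p under 0.05, x axis) for each set of libraries, split into genes higher and lower at 20 days. The bars are close to 0 without 3-day replicate 1 or 2 or 20-day replicate 1 (12, 16 and 14), and reach 3759 without 3-day replicate 3.

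Of 61 ATF4 response genes, 60 passed the filter on low counts; of these, 31 fell from 3 to 20 days and 0 rose, where 3.08% of all genes fell. The median log2 change was -0.67, against -0.04 over all genes. The difference came from 3-day replicates 1 and 2: relative to the mean of the 20-day libraries, the median member was higher by 1.1 on the log2 scale in replicate 1 and by 0.81 in replicate 2, and stood at -0.12 in replicate 3. In replicates 1 and 2, 57 of the 60 were above the 20-day mean each, where 52.7% and 53.7% of all genes were; in replicate 3, 15 were, where 48.1% of all genes were. In 56 of the 60 replicate 3 was lower than both other 3-day libraries, as it was in 45.1% of all genes. The count of members that fell was 2 without 3-day replicate 1 (VLDLR and ALDH1L2), where 0.0527% of all genes fell. It was 4 without 3-day replicate 2 (those genes, KLHL24 and SLC7A3), where 0.0761% fell, and 3 without 20-day replicate 1 (VLDLR, ALDH1L2 and KLHL24), where 0.0641% fell. The list medians in those fits were -0.45, -0.61 and -0.66, in that order. Without 3-day replicate 3 the count that fell was 47, where 11.0% of all genes fell, and 1 member rose (ALDH18A1), where 10.9% did. In 7 members all 20-day libraries were below all 3-day libraries and in 1 above, where 10.5% of all genes were in each direction. Beside this, the mitochondrial share of counts was also high in 3-day replicates 1 and 2 only among these 6 libraries; its part in the result was not tested.

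**Figure D2:**
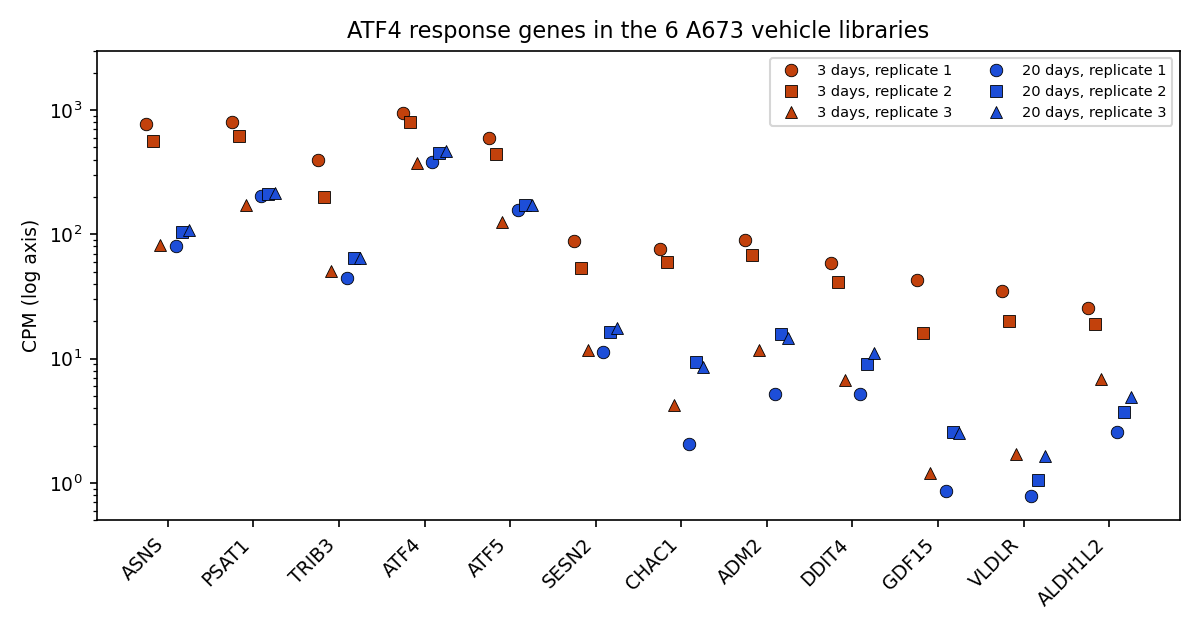
CPM (log axis) of 12 ATF4 response genes in each of the 6 A673 vehicle libraries, with 3-day libraries in orange, 20-day libraries in blue, and symbols for the replicate number. In each gene the 3-day replicates 1 and 2 lie above the other 4 libraries; ASNS, for example, was at 767 and 565 CPM there and between 81.2 and 109 in the others.

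The promoters of several of these genes carry the composite element that ATF4 binds with C/EBP partners. The 8-base motif TGATGNAA, or its reverse complement TTNCATCA, was searched in windows from 250 bases before to 50 after the start site (RefSeq, GRCh38.p14). It was found in 3.62% of 35116 windows and in 18 of the 46 tested ATF4 response genes with a window (39.1%). Of the 24 that fell and had a window, 6 held it (25.0%). The motif was thus less frequent among the members that fell than in the whole list, and it does not set them apart. A match describes the letters and shows no binding, and the list was drawn up from genes known as ATF4 targets. These 5 windows are shown because their genes fell and span the roles of the response: amino acid synthesis, glutathione breakdown and tRNA charging. Each is read 5′ to 3′ on the gene's strand with the match in capitals.
ASNS: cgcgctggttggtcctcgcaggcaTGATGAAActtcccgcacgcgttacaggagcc
CHAC1: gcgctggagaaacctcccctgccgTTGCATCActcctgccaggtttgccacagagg
GOT1: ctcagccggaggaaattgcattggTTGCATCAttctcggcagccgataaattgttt
AARS1: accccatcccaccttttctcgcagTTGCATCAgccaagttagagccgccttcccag
GARS1: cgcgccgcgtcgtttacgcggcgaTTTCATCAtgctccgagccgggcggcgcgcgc
The ASNS stretch is chr7:97872445-97872500 on the minus strand, its match starting 68 bases before the start site. The others are chr15:40953238-40953293 on the plus strand (CHAC1, 209 bases before), chr10:99430791-99430846 on the minus strand (GOT1, 198), chr16:70289662-70289717 on the minus strand (AARS1, 187) and chr7:30594821-30594876 on the plus strand (GARS1, 33).

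Among the transcription factors and feedback regulators, 5 of 12 fell and 0 rose (median -0.91; 10 fell without 3-day replicate 3, 0 without 3-day replicate 1, 1 without 3-day replicate 2 and 1 without 20-day replicate 1). ATF4 itself (chromosome 22, 39519695 to 39522685, GRCh38) was at 939, 795 and 377 CPM in 3-day replicates 1, 2 and 3 and at 379, 449 and 464 CPM in the 20-day replicates. Replicate 3 lay just below the 20-day libraries, so the groups overlapped, and the log2 change was -0.71 ± 0.18 (SE; edgeR adjusted p = 0.0203). ATF5, a related factor whose translation is raised in the same way, was at 597, 445 and 126 CPM against 157, 173 and 172. TRIB3, a pseudokinase that restrains ATF4, was at 393, 200 and 51.0 CPM against 44.6, 64.3 and 64.5, a log2 change of -1.89 ± 0.37 (edgeR adjusted p = 0.0105). DDIT3, which encodes the factor CHOP, was at 17.9, 14.7 and 5.70 CPM against 4.91, 6.46 and 6.30; it overlaps MARS1 in the genome and is uncertain because the counting strand is unknown.

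KLHL24 was the 1 member of these 12 whose groups did not overlap, where 10.5% of all genes were lower at 20 days without overlap. It stood at 43.3, 39.6 and 22.3 CPM at 3 days and 17.8, 16.4 and 17.6 at 20 days, so replicate 3 lay between its group and the 20-day libraries. The other 7 did not pass the test: CEBPB, with CEBPG a C/EBP partner of ATF4, had a log2 change of -0.26 and CEBPG -0.47, and PPP1R15A, which recruits the eIF2 phosphatase, -0.66. EIF4EBP1, a repressor of cap-dependent translation, was at -0.51, and ATF3, JDP2 and NUPR1 were at -0.81, -1.20 and -2.93. NUPR1 rests on few reads, at 3.06 CPM in 3-day replicate 1 and 0 in replicate 3.

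Amino acid and 1-carbon synthesis had the largest share of calls among the 5 ATF4 response lists, with 11 of 14 down and 0 up (median -0.82; 1 fell without 3-day replicate 1, 1 without 3-day replicate 2 and 1 without 20-day replicate 1; 11 fell and 1 rose without 3-day replicate 3). ASNS, which makes asparagine (chromosome 7, 97852118 to 97872542), was at 767, 565 and 81.8 CPM at 3 days and 81.2, 104 and 109 CPM at 20 days. Replicates 1 and 2 were far above the other 4 libraries, and the fitted change was -2.27 ± 0.41 (edgeR adjusted p = 0.0073). With 3-day replicate 3 alone it was 0.26. The serine pathway followed the same pattern. PHGDH, its first enzyme, was at 963, 807 and 464 CPM against 504, 533 and 508, PSAT1, the next, at 803, 617 and 171 CPM against 205, 210 and 215, and PSPH, the last, at 155, 109 and 48.1 CPM against 52.5, 50.7 and 53.7. In all 3 enzymes 3-day replicate 3 was the lowest of the 6 libraries.

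The mitochondrial folate enzymes SHMT2 and MTHFD2 fell by 0.50 and 0.96 on the log2 scale. ALDH1L2, a mitochondrial formyltetrahydrofolate dehydrogenase, was at 25.6, 19.1 and 6.90 CPM at 3 days and 2.58, 3.71 and 4.89 at 20 days. Here the groups did not overlap, the change was -2.21 ± 0.35 (edgeR adjusted p = 0.00193), and the call held in each of the 6 fits that left out 1 vehicle library. With 3-day replicate 3 as the only 3-day library the log2 change was -0.9. CTH, which makes cysteine from cystathionine, was at 103, 72.1 and 20.7 CPM against 14.5, 17.5 and 18.5, also without overlap. PYCR1, GPT2 and GOT1, of proline, alanine and aspartate metabolism, fell by 0.65, 0.98 and 0.68. The 3 members not called were CBS at -0.31, BCAT1 at -0.18 and ALDH18A1 at 0.25.

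Amino acid transporters had 2 of 10 down and 0 up (median -0.45; 6 fell without 3-day replicate 3, 1 without 3-day replicate 2, and 0 without 3-day replicate 1 or 20-day replicate 1). SLC6A9, a glycine transporter, was at 102, 78.2 and 24.4 CPM at 3 days and 23.7, 26.0 and 28.1 at 20 days. SLC7A3, the other, was under 1.5 CPM in every vehicle library and rests on few reads. The abundant exchangers were not called: SLC7A5 and SLC3A2, the chains of the large neutral amino acid exchanger, were at 1138, 856 and 453 CPM against 783, 557 and 539, and at 536, 445 and 211 CPM against 351, 245 and 236. SLC7A11, the cystine importer, was at 134, 94.7 and 81.5 CPM against 101, 86.1 and 80.9. Its log2 change was -0.21 ± 0.30 (edgeR adjusted p = 0.724), and in SLC7A11 replicate 3 lay within the 20-day range. The other 5 transporters, SLC7A1, SLC1A4, SLC1A5, SLC38A2 and SLC36A4, had changes of -0.62 to 0.13 and were not called.

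Of the tRNA charging genes, 5 of 13 fell and 0 rose (median -0.49; 9 fell without 3-day replicate 3, 0 without 3-day replicate 1, 3-day replicate 2 or 20-day replicate 1). GARS1, which charges glycine tRNA, was at 830, 626 and 229 CPM at 3 days and 275, 267 and 266 at 20 days. AARS1, CARS1, EPRS1 and SARS1, for alanine, cysteine, glutamate with proline, and serine, changed by -0.55, -0.95, -0.51 and -0.64. IARS1, LARS1, TARS1 and VARS1, for isoleucine, leucine, threonine and valine, stayed between -0.10 and 0.11 and were not called, nor were MARS1, NARS1, WARS1 and XPOT at -0.51 to -0.29. EPRS1 alone of the 13 had groups that did not overlap, where 10.5% of all genes were lower at 20 days without overlap. Its 3-day replicate 3 was at 293 CPM and its highest 20-day library at 291.

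Stress effectors and secreted factors had 8 of 11 down and 0 up and the lowest median of the 5 lists, -2.08 (1 fell without 3-day replicate 1, 1 without 3-day replicate 2 and 1 without 20-day replicate 1; 11 of 12 fell without 3-day replicate 3, where FGF21 also passed the filter). CHAC1, which degrades glutathione (chromosome 15, 40952962 to 40956519), was at 75.6, 59.7 and 4.22 CPM at 3 days and 2.04, 9.39 and 8.57 at 20 days, a change of -2.80 ± 0.60 (edgeR adjusted p = 0.0131). Replicate 3 lay within the 20-day range. DDIT4, an inhibitor of mTORC1, was at 59.2, 41.6 and 6.68 CPM against 5.23, 9.06 and 11.2, and SESN2, which senses leucine, at 88.8, 53.3 and 11.8 CPM against 11.3, 16.3 and 17.6. The secreted factors ADM2, GDF15 and INHBE changed by -2.25, -3.34 and -2.70. GDF15, a circulating stress hormone, was at 42.8 CPM in 3-day replicate 1, 16.2 in replicate 2 and 1.21 in replicate 3.

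VLDLR, a lipoprotein receptor (chromosome 9, 2621834 to 2660053), changed most among the ATF4 response genes. It was at 35.0, 20.2 and 1.70 CPM at 3 days and at 0.788, 1.06 and 1.65 CPM at 20 days, a log2 change of -4.03 ± 0.58 (edgeR adjusted p = 0.00123). Replicate 3 lay just above the highest 20-day library. The call held in every fit that left out 1 vehicle library, but each of those fits kept 3-day replicate 1 or 2. With 3-day replicate 3 as the only 3-day library the log2 change was -0.56. CCNG2, an atypical cyclin, fell by 0.73, and STC2, VEGFA and TNFRSF10B were not called, at -0.73, -0.81 and -0.20. FGF21, a secreted stress hormone, did not pass the filter on low counts; it had 29 and 27 counts in 3-day replicates 1 and 2, and 0 in replicate 3 and in each 20-day library.

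**Figure D3:**
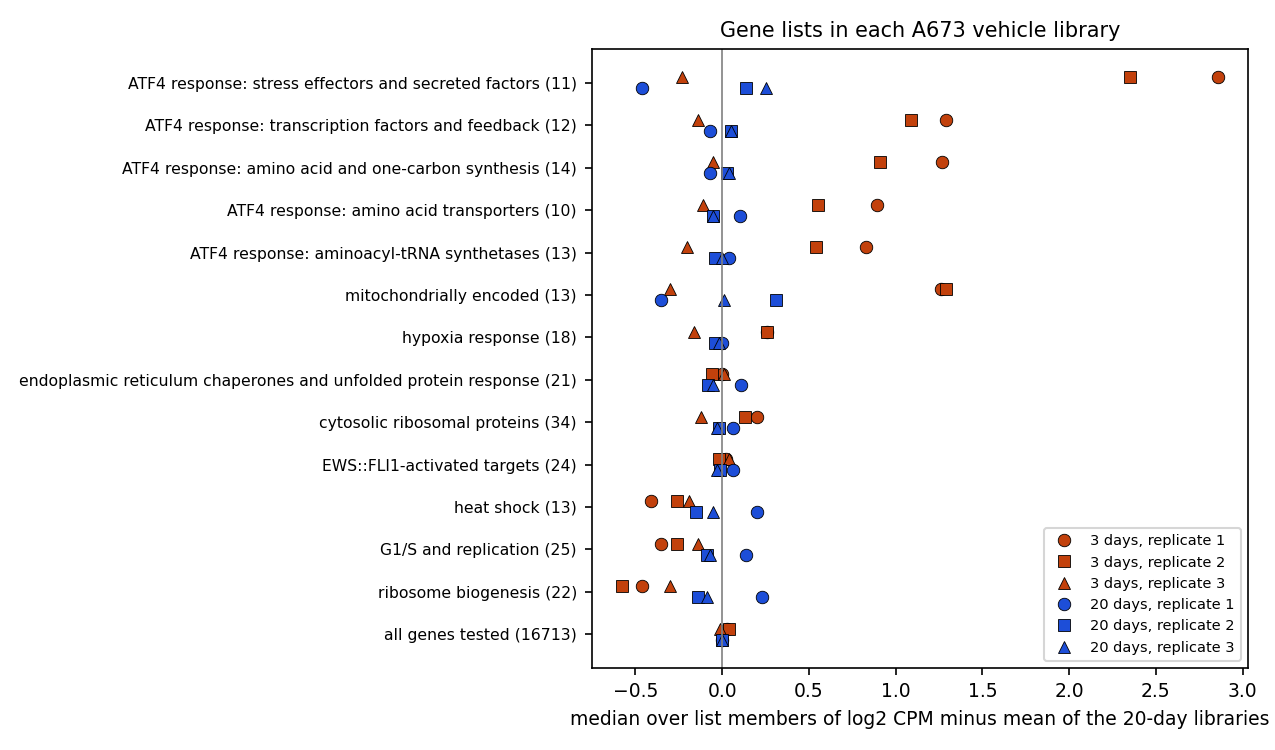
Median over each list's tested members (number in brackets) of log2 CPM minus the mean of the 3 20-day libraries, for each A673 vehicle library. 3-day replicates 1 and 2 lie at 0.54 to 2.86 in the 5 ATF4 response lists and at 1.26 and 1.29 in the mitochondrially encoded genes, while 3-day replicate 3 lies between -0.30 and 0.04 in every list drawn.

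By list median, other stress arms moved less than any of the ATF4 response lists. Of 10 genes of the eIF2 kinase machinery, EIF2S1, the phosphorylated subunit itself, rose by 0.49 and the others were not called, including the kinase genes EIF2AK1 to EIF2AK4. Of 21 endoplasmic reticulum chaperone and unfolded protein genes, 2 fell, where 3.08% of all genes did, with a list median of 0.03. They were XBP1 (138, 101 and 39.4 CPM against 38.5, 39.0 and 39.6) and HERPUD1 (86.8, 65.8 and 31.8 CPM against 34.9, 33.1 and 31.7). Both followed the ATF4 pattern, high in 3-day replicates 1 and 2 alone. In this list and the eIF2 kinase list, 0 were called without 3-day replicate 1, 3-day replicate 2 or 20-day replicate 1. Of 13 heat shock genes, 4 rose and 0 fell (median 0.33), where 3.02% of all genes rose and 3.08% fell. Without 3-day replicate 1, 3-day replicate 2 or 20-day replicate 1, 0 were called, with list medians of 0.24, 0.34 and 0.22. HSPA8, the constitutive cytosolic HSP70, was at 674, 678 and 1344 CPM at 3 days and 2254, 1524 and 1595 at 20 days. The chaperone genes HSPH1, HSPD1 and DNAJB1 rose by 0.72, 0.44 and 0.34.

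All 13 mitochondrially encoded messenger RNAs were lower in 3-day replicate 3 than in replicates 1 and 2. In the full comparison 2 fell, where 3.08% of all genes did, MT-ATP8 (42.4, 31.8 and 3.09 CPM against 5.27, 5.98 and 4.99) and MT-ATP6 (4595, 4759 and 1162 CPM against 1112, 1838 and 1375). These 2 genes overlap on the mitochondrial genome, and nuclear copies share mitochondrial sequence, so the split of reads is uncertain. The list median was -0.9, and 12 of 13 fell without 3-day replicate 3, where 11.0% of all genes did. Nuclear genes of oxidative phosphorylation had 0 of 26 called by edgeR and a median of 0.04. With the mitochondrial genes left out before scaling, 31 ATF4 response genes were called, as with them.

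The libraries also differed by transcript length. In 3-day replicate 3 minus replicates 1 and 2, the median log2 difference was -0.19 in 273 genes with under 1.5 kb of exon and 0.15 in 2400 genes with over 8 kb (r = 0.223 with log2 length across 9967 genes, a description). ATF4 response genes lay below the median of all genes in each length class, at -1.14 (2 genes), -2.04 (9), -1.11 (17), -0.81 (18) and -0.68 (8) from the shortest to the longest. Replicates 1 and 2 minus the 20-day mean had ATF4 medians of 0.56 to 1.62, where all genes had -0.09 to 0.09.

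**Figure D4:**
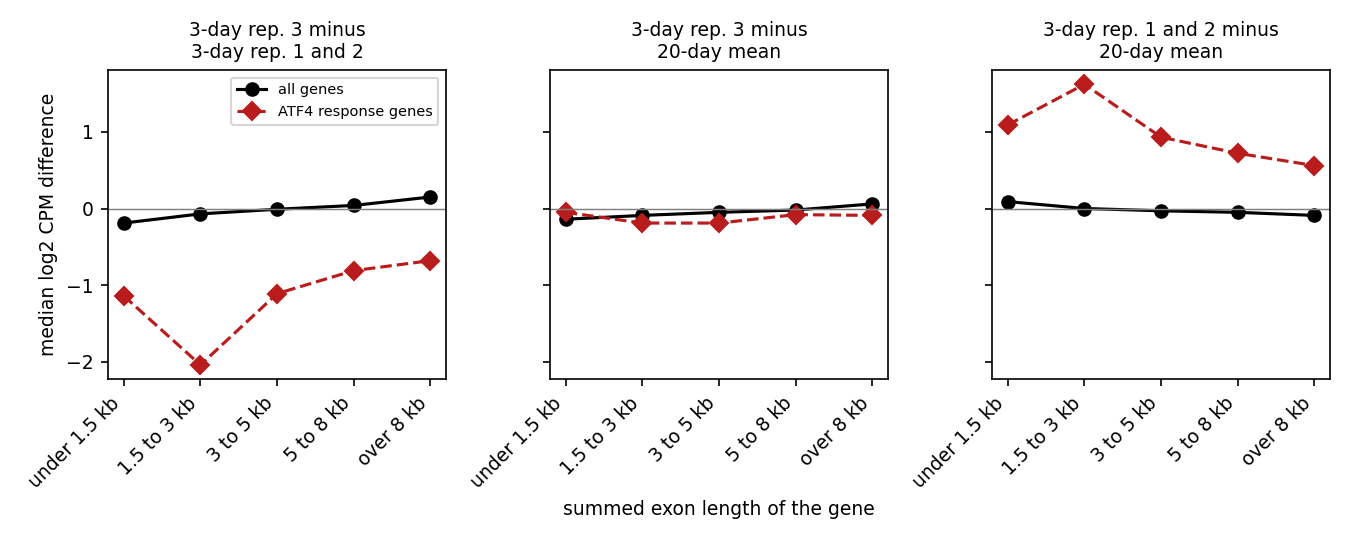
Median log2 CPM difference (y axis) by summed exon length of the gene (x axis) for all genes and for ATF4 response genes, in 3 comparisons of A673 vehicle libraries. For 3-day replicate 3 minus replicates 1 and 2 all genes run from -0.19 to 0.15, and ATF4 response genes lie at -0.68 or lower in each class.

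Ribosome biogenesis was the list with most genes higher at 20 days. Of 22 tested, 15 rose and 0 fell, where 3.02% of all genes rose, with a median of 0.48. Without 3-day replicate 1, 3-day replicate 2 or 20-day replicate 1, 0 were called, where 0.0176%, 0.0176% and 0.0175% of all genes rose. The list medians in those fits were still 0.45, 0.39 and 0.32. With 3-day replicate 3 left out, 17 rose, where 10.9% of all genes did. RRS1, a ribosome assembly factor, was at 19.7, 22.5 and 41.5 CPM at 3 days and 64.5, 44.9 and 44.5 at 20 days. NOP16, a nucleolar protein of the large subunit, was at 20.4, 22.7 and 30.1 CPM against 51.2, 35.2 and 37.8, WDR43 at 112, 102 and 150 CPM against 220, 163 and 175, and NOP58, a box C/D RNA protein, at 125, 124 and 155 CPM against 234, 181 and 189. In these genes replicate 3 was the highest of the 3-day libraries, 20-day replicate 1 was the highest of all, and the groups did not overlap. Cytosolic ribosomal protein genes had 0 of 34 called, with a median of -0.09.

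Cell cycle genes changed less by list median. Without 3-day replicate 1, 3-day replicate 2 or 20-day replicate 1, 0 of 25 G1/S and replication genes were called. Without 3-day replicate 3, 14 rose, where 10.9% of all genes did. With all libraries 4 rose and 0 fell (median 0.27), where 3.02% of all genes rose. They were UHRF1, which guides maintenance DNA methylation, at 256, 278 and 455 CPM against 654, 492 and 493; CLSPN, a checkpoint mediator, which rose by 0.73; MCM10, by 0.60; and MCM4, a helicase subunit, by 0.51. Of 25 G2/M genes 1 rose (median 0.23), CCNB1, the mitotic cyclin, by 0.38, where 3.02% of all genes rose. All 20-day libraries lay above all 3-day libraries in 10 of the G1/S and replication genes and 11 of the G2/M genes. Of all genes 10.5% did so, and 0 genes of the 2 lists went the other way. FLI1, the 3′ partner of the fusion, was at 65.6, 64.7 and 75.4 CPM at 3 days and 104, 78.3 and 81.7 at 20 days, a rise of 0.36 ± 0.09 (edgeR adjusted p = 0.0212; 0.155 without 3-day replicate 1 and 0.279 without 20-day replicate 1). Its activated targets had 0 of 24 called and a median of -0.01, and its repressed targets 0 of 20 and -0.04. Matrix genes had 0 of 36 called and the insulin-like growth factor axis 0 of 15. PTK2B, a kinase related to focal adhesion kinase, was the member called among 27 integrin and focal adhesion genes, at -0.68. Of all genes 6.1% were called, so the PTK2B call describes a single gene and not its list.

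In all, 9 genes were called with all libraries and in each of the 6 fits that left out 1. HDAC5, a class IIa histone deacetylase (chromosome 17, 44076746 to 44123702), was at 84.9, 82.4 and 69.5 CPM at 3 days and 47.5, 50.7 and 50.5 at 20 days, a change of -0.67 ± 0.09 (edgeR adjusted p = 0.000137). MXD4, a repressor that competes for MAX, was at 26.7, 25.7 and 22.8 CPM against 15.2, 15.3 and 17.8. CDS1, a CDP-diacylglycerol synthase, was at 6.13, 6.24 and 5.47 CPM against 2.36, 2.09 and 2.76. In these 3 genes replicate 3 sided with its own group. C17orf107 fell by 2.72 from low levels, and VLDLR and ALDH1L2, described above, were the other genes that fell.

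UTP14A, a small subunit processome protein, rose by 0.81 ± 0.11 (edgeR adjusted p = 0.000671), from 34.8, 30.8 and 43.1 CPM to 78.6, 56.6 and 55.5. SAFB and SAFB2, which encode scaffold attachment factors, rose by 0.63 and 0.64. SAFB was at 179, 174 and 213 CPM against 332, 271 and 272, and SAFB2 at 95.8, 89.5 and 99.2 CPM against 175, 139 and 130. They overlap head to head on chromosome 19, and with the counting strand unknown part of their reads may be shared. Set alone against the 20-day group, 3-day replicate 3 did not give a call for any of the 9, where 0.0112% of all genes were called; HDAC5 was at -0.49 and UTP14A at 0.56 there.

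Among well-expressed genes whose groups did not overlap, RGS5 and PGF had the largest rises. RGS5, a regulator of G protein signalling known from pericytes, was at 7.54, 5.83 and 11.2 CPM at 3 days and 36.7, 15.2 and 12.7 at 20 days, and PGF, the placental growth factor, at 18.1, 18.4 and 17.7 CPM against 64.2, 32.8 and 35.1. In both, 20-day replicate 1 was far above the other 20-day libraries, and neither was called without it (edgeR adjusted p = 0.38 and 0.215). BHLHE22, GNL3L, SLC30A1, CDH4, TFRC and FJX1 rose by 0.89 to 1.09, with TFRC, the transferrin receptor, at 225, 242 and 525 CPM against 816, 530 and 540. SLC30A1, a zinc exporter, was at 26.0, 22.2 and 19.5 CPM against 69.0, 33.5 and 34.1.

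Of the genes that fell without overlap, ECHDC2, FBXO32, YPEL3 and ALDH2 followed ALDH1L2 and CTH. FBXO32, the ubiquitin ligase atrogin-1 of muscle wasting, was at 30.6, 31.6 and 7.85 CPM at 3 days and 6.95, 6.75 and 7.65 at 20 days. ALDH2, a mitochondrial aldehyde dehydrogenase, was at 49.2, 44.0 and 16.8 CPM against 9.28, 16.1 and 14.5, and SORL1, a sorting receptor, at 11.8, 13.9 and 5.21 CPM against 2.94, 4.62 and 3.73. OLMALINC, a long noncoding RNA, MYO15B and GDPD1 fell by 1.80, 1.53 and 1.48. In FBXO32, ALDH2 and SORL1, replicate 3 lay near the 20-day libraries. ACSS2, which makes acetyl-CoA from acetate, was at 81.2, 97.4 and 47.3 CPM against 22.3, 42.8 and 42.1 and fell by 1.08.

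Within the 3-day group, the genes lowest in replicate 3 against replicates 1 and 2 were chosen by that difference and are given with no test. CHAC1, GDF15, VLDLR and ASNS were among the 10. MT1X, a zinc- and copper-binding metallothionein of a family with similar copies, was at 51.8 and 48.1 CPM in replicates 1 and 2 and 4.22 in replicate 3, and unlike the ATF4 response genes it was also high at 20 days, at 44.2, 31.2 and 27.9 CPM. The tryptase genes TPSB2 and TPSAB1, near-identical copies and therefore uncertain, were at 108, 106 and 10.4 and at 123, 125 and 15.1 CPM. ACSS3, a mitochondrial acyl-CoA synthetase, was at 31.2, 21.8 and 2.30 CPM, and GBP2, an interferon-induced GTPase, at 29.6, 33.0 and 3.62 CPM. The genes highest in replicate 3 included KMT2D, a histone methyltransferase, at 90.8, 84.0 and 239 CPM, HCFC1, a cell cycle cofactor, at 152, 157 and 386, and NOL9, a nucleolar kinase, at 18.0, 19.7 and 57.4 CPM. NOL9 was at 52.0 to 56.8 CPM and HCFC1 at 329 to 411 CPM at 20 days, around replicate 3.

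In all 30 libraries, the mean log2 CPM of the 60 ATF4 response genes was highest in A673 3-day vehicle replicates 1 and 2, at 7.35 and 6.94. The next were the 20-day vehicle replicates 3 and 2 at 5.96 and 5.95, 3-day vehicle replicate 3 at 5.80 and 20-day vehicle replicate 1 at 5.75. A673 libraries under BMS-986158 lay at 5.34 to 5.36 at 3 days and 5.25 to 5.42 at 20 days. CHLA10 vehicle lay at 5.58 to 5.63 at 3 days and 5.19 to 5.42 at 20 days, and TC32 vehicle at 5.53 to 5.58. ASNS was at 87.2 to 90.7 CPM in A673 under 3 days of BMS-986158 and 77.5 to 78.2 CPM under 20 days, close to A673 3-day vehicle replicate 3 and the 20-day vehicle libraries.

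**Figure D5:**
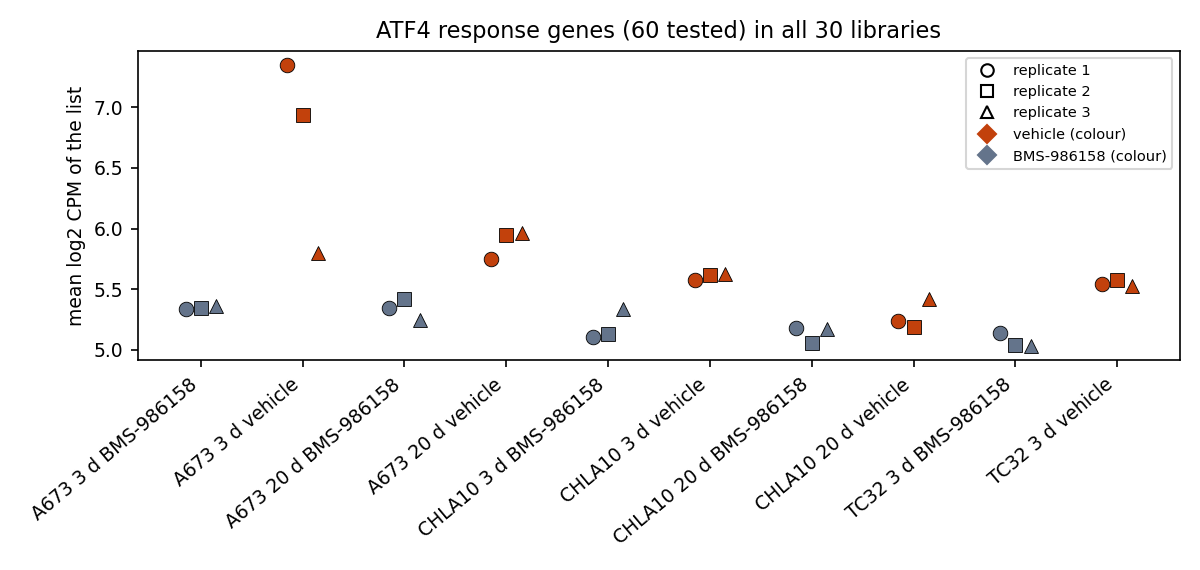
Mean log2 CPM of the 60 tested ATF4 response genes (y axis) in each of the 30 libraries, by group, with vehicle in orange, BMS-986158 in grey and a symbol for each replicate. A673 3-day vehicle replicates 1 and 2 stand at 7.35 and 6.94, and the other 28 libraries lie at 5.96 or lower.

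In CHLA10 vehicle, 1346 genes (8.05%) rose and 1180 (7.06%) fell from 3 to 20 days. The change differed between the lines in 3677 genes, a test in which the A673 and CHLA10 arms share no library. Of the ATF4 response genes, 17 fell and 2 rose in CHLA10 (median -0.37). In the test of the difference, 12 changed lower and 4 higher in A673 (median -0.44), where 11.4% and 10.6% of all genes did. Without A673 3-day replicate 3 these were 34 and 4 (median -0.74), where 15.1% and 14.0% of all genes did. With replicate 3 as the only 3-day A673 library they were 3 and 17 (median 0.52), where 2.05% and 2.75% did, so the direction of the difference in ATF4 response genes turned with the library.

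In genes of G1/S and replication, G2/M, ribosome biogenesis and glycolysis the direction of the median difference did not turn. With all libraries, 10.6% of all genes had a higher and 11.4% a lower change in A673. Of 25 G1/S and replication genes, 24 fell in CHLA10, and 24 had a higher change in A673 (0 lower), with a median difference of 0.92; 21 did with 3-day replicate 3 as the only 3-day A673 library. UHRF1 fell in CHLA10 from 374, 376 and 389 CPM to 175, 178 and 289, a difference between the lines of 1.55 ± 0.23 (edgeR adjusted p = 7.87e-05). Of 22 ribosome biogenesis genes, 14 fell in CHLA10 and 19 had a higher change in A673, 15 with replicate 3 alone. Of 25 G2/M genes 15 had a higher and 0 a lower change in A673, and of 20 glycolysis genes 11 and 2. Their median differences with replicate 3 alone were 0.54 and 0.64. Cytosolic ribosomal protein genes went the other way, with 0 of 34 higher and 13 lower in A673. Their median difference was -0.32, and -0.17 with replicate 3 alone. MHC class I and peptide loading genes had 7 of 15 with a lower change in A673, 0 with replicate 3 alone. HDAC5 and MXD4, which fell in A673 with all libraries and in each of the 6 fits that left out 1, rose in CHLA10 by 0.75 and 1.08; the differences were -1.42 and -1.72 (edgeR adjusted p = 2.42e-08 and 8.36e-09).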

How the data were processed

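Per the labels' protocols, poly(A) RNA of the 6 A673 vehicle libraries, and of the other 24, was sequenced as read pairs on an Illumina NovaSeq. STAR, Trim Galore, FastQC and DESeq2, and the build GRCh38, are named in the submitters' processing notes. For the read counter, its strand setting and annotation, and the tool versions: not given in the sources used here. Deposited by the authors, the values are raw counts per Ensembl gene (33538 genes, 7105 at 0 in every library; 33113 paired with a symbol). Coordinates are from GENCODE 29. All libraries carry batch label 1.

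Counts were fitted in edgeR 4.0.16 (R 4.3.3) with 1 mean per group over all 30 libraries, filterByExpr, TMM scaling, robust quasi-likelihood dispersion and no covariates; p was adjusted by Benjamini-Hochberg over 16713 genes and genes were called under 0.05. SE is the size of the log2 change over the root of F. CPM uses TMM-scaled sizes, and log2 CPM a prior count of 2. The fit was checked on simulated data, where 92% of changes of 1 on the log2 scale were recovered and 4% of calls were false. The simulation gave all replicates of a group 1 mean. It therefore does not cover a library that differs from its group, as 3-day replicate 3 did. In each replicate pair the counts differed by more than counting noise (chi-square per gene at least 4.858).

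The members, the 39 gene lists and the tests were chosen with earlier results of these data known. The text may name any ATF4 response gene; the 10 highest and 10 lowest called genes (mean log2 CPM at least 2, groups not overlapping, no clone-type symbols); up to 8 each way that stay called in all 6 left-out fits; the 10 highest and 10 lowest in 3-day replicate 3; up to 4 called members per list; and the 5 highest and 5 lowest of the difference from CHLA10. CDS1, C17orf107 and SLC39A10 were named after their values were seen. Alternatives were other scalings and filters, DESeq2 1.42.0, limma-voom (limma 3.58.1), smaller sets of libraries, a replicate block, and each library left out. Promoter windows are from RefSeq. Figures used matplotlib 3.10.9.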

Additional observations from a re-analysis of the deposited data

Results flagged for a closer look

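The 20-day against 3-day vehicle change differed between A673 and CHLA10 in 3677 genes by the interaction test (edgeR, adjusted p under 0.05); all values here are log2 differences, A673 minus CHLA10. The genes with the highest values were FAM222A and MFSD2A, a lysophospholipid transporter, at 2.37 each, QRFPR, a peptide receptor, at 2.01, CLSPN at 1.96 and PPARGC1B, a transcriptional coactivator of mitochondrial genes, at 1.95. The lowest were VLDLR at -4.90, MTRNR2L12, a nuclear copy of mitochondrial sequence and so uncertain, at -4.68, MT-ATP8 at -3.75, ACSS1, a mitochondrial acetyl-CoA synthetase, at -3.67 and ABTB1 at -3.63. In ACSS1 the difference came with a rise of 3.23 in CHLA10, and the A673 change was -0.44 and not called.

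Among ATF4 response genes, a lower change in A673 was found for SLC7A3 (-2.92, on few reads), DDIT4 (-2.73), ADM2 (-2.47), KLHL24 (-2.29), ALDH1L2 (-1.90), ASNS (-1.85), CCNG2 (-1.76), CTH (-1.52), GPT2 (-0.81), EPRS1 (-0.59) and SLC38A2 (-0.46). A higher change was found for VARS1 (0.77), ALDH18A1 (0.63), SLC36A4 (0.59) and IARS1 (0.38). SLC38A2 and SLC36A4 are amino acid transporters; neither was called within A673, nor were VARS1, ALDH18A1 and IARS1. Which of these differences hold depends on the 3-day A673 libraries used, as the counts with replicate 3 alone show.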

How the results depend on the processing

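Leaving out 1 of the 6 vehicle libraries in turn gave 12 to 3759 called genes against 1019, and 2 to 48 called ATF4 response genes against 31. Between A673 and CHLA10, leaving out 1 of the 12 vehicle libraries gave 2441 (without A673 20-day replicate 1) to 4993 genes against 3677. With DESeq2 1680 genes were called, and with limma-voom 19 ATF4 response genes. With the A673 libraries only, and with the A673 vehicle libraries only, 0 genes and 0 ATF4 response genes were called by edgeR. An adjusted p under 0.01 left 69 genes and 6 ATF4 response genes, and requiring a 2-fold change left 246 and 18. In fits added after seeing the data, 3-day replicate 1 alone gave 1862 genes and 47 ATF4 response genes, replicate 2 alone 1749 and 37, replicate 3 alone 2 and 0, and leaving out 3-day replicate 3 with 20-day replicate 1 gave 2212 and 48. Where a 3-day library stands alone it is assumed to vary like the other groups. Other scalings and filters gave 741 to 1117 genes. Of 88 named genes that were called, 0 changed sign when a vehicle library was left out; 80 lost their call without 3-day replicate 1, 79 without 3-day replicate 2, 79 without 20-day replicate 1 and 0 without 3-day replicate 3. The cause was not tested.

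The labels do not say whether 3-day and 20-day libraries with the same replicate number were paired. Deviations of same-numbered libraries from their group means correlated at -0.0768, 0.227 and -0.162. With 3 libraries per group the deviations are tied to each other, so these values cannot settle it. With the replicate block 1144 genes, 30 ATF4 response genes and 3375 genes between the lines were called.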

Other observations

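In A673, a few genes of glycolysis, the hypoxia response, NRF2 and redox, and cholesterol synthesis were called from 3 to 20 days (edgeR, adjusted p under 0.05). Of all genes 6.1% were called, 3.08% falling and 3.02% rising. The last 3 lists had 1 call each, near that share, so these calls describe single genes and not the lists. In these 4 lists 0 were called without 3-day replicate 1, 3-day replicate 2 or 20-day replicate 1. Of 20 glycolysis genes 3 were called: ALDOC and ENO2, isoforms of aldolase and enolase, fell by 1.40 and 0.77 on the log2 scale, and HK2, a hexokinase, rose by 0.40. ALDOC was at 34.4, 49.9 and 14.8 CPM at 3 days and 6.23, 14.7 and 16.7 CPM at 20 days, so the groups overlapped through replicate 3. Of 18 hypoxia response genes 1 was called: MXI1, a repressor that pairs with MAX, fell from 43.2, 41.8 and 23.8 CPM to 18.6, 21.1 and 21.6 CPM. Of 19 NRF2 and redox genes 1 was called: ARRDC4, an arrestin-domain protein induced by glucose, fell from 36.1, 29.7 and 6.56 CPM to 8.67, 6.64 and 5.23 CPM. SREBF2, the main transcription factor of sterol synthesis, fell by 0.39, the 1 gene called among 22 of cholesterol synthesis. The 23 lysosome and autophagy genes had 0 called and the 21 interferon-stimulated genes 0, with medians of -0.05 and -0.37; without 3-day replicate 3, 6 of the 23 fell and 2 rose, and 2 of 22 fell, where 11.0% of all genes fell and 10.9% rose.

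Of the 2 genes called with 3-day replicate 3 as the only 3-day library, both are known for handling zinc; they were chosen after their values were seen. MT1X was higher at 20 days than in that library (log2 3.03 ± 0.46, edgeR adjusted p = 0.00642). SLC39A10, a zinc importer of the plasma membrane, was lower by the same test (-1.31 ± 0.20, adjusted p = 0.00642), at 152 CPM in 3-day replicate 3 and at 57.0 and 63.5 CPM in replicates 1 and 2 and 51.1, 62.0 and 70.7 CPM at 20 days. In both genes 3-day replicates 1 and 2 were on the side of the 20-day libraries, the opposite grouping to the ATF4 response genes. SLC30A1, the zinc exporter, was lowest in 3-day replicate 3 at 19.5 CPM, and replicates 1 and 2 were at 26.0 and 22.2 CPM. Its 3-day libraries all lay below the 20-day libraries, so it did not share the grouping of MT1X and SLC39A10.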
